A study of Bos taurus with 12 samples.

Results

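The 10 genes described here encode the signalling chains and coreceptors of the T cell receptor, and their mRNA was measured in the mammary gland of lactating cows. They are the CD3 chains CD3D, CD3E and CD3G, the coreceptors CD4, CD8A and CD8B, the accessory receptors CD2 and CD5, and the tyrosine kinases LCK and ZAP70. Non-control probes of the array were assigned to them by matching their RefSeq accessions, regardless of version, to the bovine RefSeq table. This gave 24 of 43653 probes, and 10 of the 12639 genes that could be named.

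A T cell recognises a peptide presented by a major histocompatibility complex (MHC) molecule through a receptor that has no signalling part of its own, and the CD3 chains carry the signal into the cell. The coreceptors CD4 and CD8 bind MHC class II and class I molecules, respectively, and bring the kinase LCK to the receptor, where it phosphorylates the CD3 chains so that ZAP70 can dock and pass the signal on. T cells are found in the epithelium and stroma of the mammary gland and in milk, and in young cattle a large part of the circulating T cells carries a gamma delta receptor, many of them with the coreceptor WC1.

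The question was whether underfeeding changes the gene expression of the inflamed gland. All 12 cows were multiparous Holstein cows in early lactation (24 ± 3 days in milk). The 6 cows of the control group (CONT) kept free access to a lactation diet, and the 6 cows of the restricted group (REST) received that ration diluted with barley straw (48% of dry matter) for 4 d. In both groups 50 µg of lipopolysaccharide (LPS) was infused into a rear gland on day 3, and a biopsy was taken 24 h later, so that the comparison holds no gland without LPS. Each array carried the RNA of 1 cow, and cows are numbered within a group only to name them.

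Values are log2 signals after subtraction of the 75th percentile of the array, so that 0 is a signal well into the bright range of the array. They serve to compare cows for 1 probe and do not rank genes. Before this step the 75th percentile of the intensities lay between 577.1 and 1184 in the CONT arrays and between 386.9 and 1082 in the REST arrays. The scanner software called 57.6 to 76.0% of probes well above background in CONT and 63.2 to 78.1% in REST. The arrays came from 3 slides of 4 arrays, with 3 CONT and 1 REST on slide 1, 1 CONT and 3 REST on slide 2 and 2 of each on slide 3. Negative control signals were 37.7 to 58.2 on slide 1 and 17.43 to 19.96 on the other slides. The number of arrays limits the precision. All 12 of the epithelial marker genes measured were well above background on all arrays.

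Of the 10 genes, 9 had a brightest probe well above background on all 12 arrays, and CD5 was above it in 4 CONT and 4 REST cows. Of the 24 probes, 15 were so on all arrays, while 2 CD4 probes, 1 CD5 probe and 1 CD8A probe were so on none and are given no difference. In a biopsy, fewer T cells and less RNA per T cell cannot be told apart.

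No T cell receptor or coreceptor gene passed the threshold between REST and CONT. Moderated tests with limma and Benjamini-Hochberg adjustment called 0 of the 43653 probes on the array (0%) and therefore 0 of the 24 probes (lowest adjusted p = 1.00). At an unadjusted p under 0.05, 1143 probes (2.62%) differed over the array, 761 of them higher (1.74%) and 382 lower in REST (0.875%), and 1 of the 24 probes, the brightest of CD3D, was higher at that level. Among the brightest probes of all named genes, 334 (2.64%) were under that value, 206 (1.63%) higher and 128 (1.01%) lower in REST. Of the 10 genes, 3 were higher and 7 lower in REST with no threshold, against 5500 of 12639 named genes higher (43.5%). Their median difference was −0.08 on the log2 scale, and that of all named genes was −0.03. No gene of the 10 had groups that did not overlap, as 19 of all named genes did (0.150%).

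**Figure D1:**
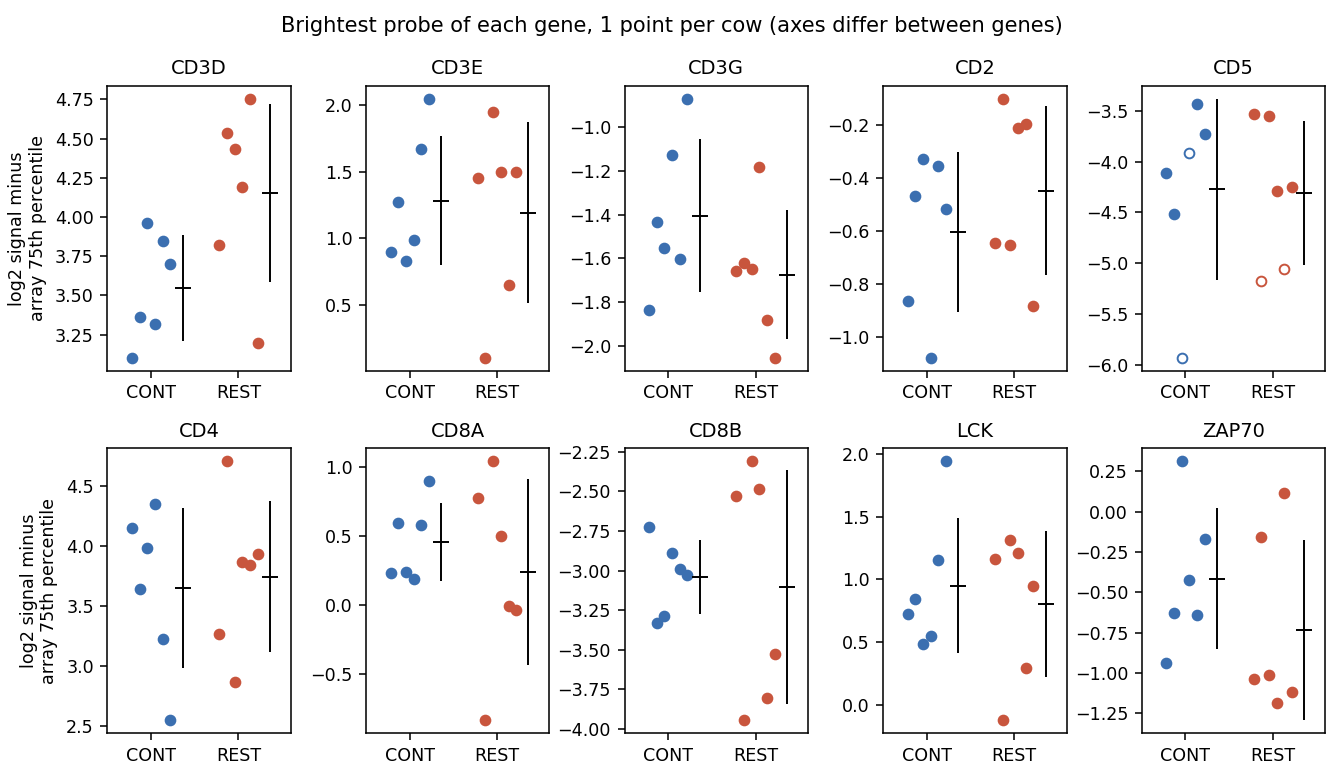
Log2 signal minus the 75th percentile of the array for the brightest probe of each gene, with 1 point per cow (CONT blue, REST red), open where the signal was not well above background, and the mean ± SD in black (n = 6). CD3D has 4 REST cows above and ZAP70 4 below every CONT cow, and CD8B has 3 above and 3 below.

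CD3D, CD3E and CD3G encode the CD3 chains that every T cell carries, and the RefSeq table of assembly ARS-UCD2.0 lists them next to each other with no gene between them. Their brightest probes did not move in 1 direction. For CD3D, the lowest, median and highest log2 signals were 3.103, 3.53 and 3.96 in CONT and 3.20, 4.31 and 4.75 in REST. Of the 6 REST cows, 4 lay above every CONT cow, whereas REST 6 was the lowest but 1 of all cows. The difference was 0.60 ± 0.26 (SE; 95% confidence interval 0.03 to 1.18), a 1.52-fold higher signal in REST, with a limma p of 0.0400 before and 1.00 after adjustment, and a two-sided exact permutation p of 0.0563 over the 924 splits.

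This difference depended on cow, slide and probe. Leaving out 1 cow at a time gave 0.48 (without REST 5) to 0.80 (without REST 6, adjusted p = 0.726 with limma). The limma p before adjustment stayed under 0.05 without CONT 3, CONT 5, CONT 6, REST 1 or REST 6, and rose above it without CONT 1, CONT 2, CONT 4, REST 2, REST 3, REST 4 or REST 5. It was 0.31 within slide 1, 1.39 within slide 2, where the single CONT cow was the lowest of all cows, and −0.02 within slide 3. The second CD3D probe was well above background in 5 cows of each group, and gave −0.12 ± 0.43 (SE) with signals of −4.19 to −2.05 in CONT and −4.95 to −2.58 in REST. The mean over both probes gave 0.24 ± 0.23 (SE), so that the only gene under 0.05 was so through 1 of its 2 probes.

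CD3E, the chain against which antibodies that mark T cells are often directed, had signals of 0.83, 1.13 and 2.05 in CONT (lowest, median, highest) and 0.10, 1.47 and 1.95 in REST. REST 2 and REST 5 were below every CONT cow, and the other 4 REST cows were within the CONT range. The difference was −0.09 ± 0.32 (SE), with a 95% confidence interval of −0.79 to 0.61. The second CD3E probe gave 0.23 ± 0.30, so that the sign depended on the probe.

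CD3G, the remaining chain, had signals of −1.84, −1.49 and −0.87 in CONT and −2.05, −1.65 and −1.18 in REST. REST 5 and REST 6 were below every CONT cow. The difference was −0.27 ± 0.20 (SE; exact permutation p = 0.173). Its second probe gave −0.24 ± 0.32 and its dimmest probe, well above background in 4 CONT and 5 REST cows, 0.23 ± 0.44.

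CD2, an adhesion receptor of T and natural killer cells, and CD5, a receptor that dampens signalling from the T cell receptor, accompany the receptor on the cell surface. CD2 signals were −1.08, −0.49 and −0.33 in CONT and −0.88, −0.43 and −0.10 in REST. REST 2, REST 4 and REST 5 were above every CONT cow, while the other 3 were within the CONT range. The difference of 0.15 ± 0.19 (SE) had a 95% confidence interval of −0.27 to 0.57. CD5 had signals of −5.93 to −3.43 in CONT and −5.18 to −3.53 in REST, with a difference of −0.04 ± 0.43. The REST cows lay within the CONT range for CD5, and this was the least precise of the 10 brightest probes.

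The coreceptor CD4, which marks helper T cells, had log2 signals of 2.55, 3.81 and 4.35 in CONT and 2.86, 3.85 and 4.71 in REST for its brightest probe. Only REST 2 lay outside the CONT range. The difference was 0.10 ± 0.35 (SE; 95% confidence interval −0.67 to 0.86). The second CD4 probe, well above background in 1 CONT and 4 REST cows, had signals of −5.61 to −3.34 in CONT and −5.26 to −3.06 in REST. It gave 0.75 ± 0.42 (SE; exact permutation p = 0.136) and 0.88 ± 0.31 with slide as a block (limma p = 0.0150 before and 1.00 after adjustment), but 0.13 after normexp background correction. The REST cows lay within the CONT range for this probe except REST 3, the highest cow.

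CD8A and CD8B form the CD8 coreceptor of cytotoxic T cells, and are also neighbours in the RefSeq table. For CD8A, signals were 0.19, 0.41 and 0.90 in CONT and −0.83, 0.25 and 1.04 in REST. REST 2, REST 5 and REST 6 were below every CONT cow, and REST 3 was above every CONT cow. The difference was −0.22 ± 0.29 (SE; exact permutation p = 0.496). It was −0.03 with slide as a block, −0.00050 without REST 2 and −0.38 without REST 3.

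For CD8B, the REST cows lay on both sides of the CONT cows. CONT signals were −3.33, −3.01 and −2.72, and REST signals were −3.95, −3.03 and −2.31. None of the 6 REST cows was within the CONT range, as REST 1, REST 3 and REST 4 were above and REST 2, REST 5 and REST 6 below every CONT cow. The SD was 0.74 in REST and 0.23 in CONT, and the difference in means was −0.06 ± 0.30 (SE). The second CD8B probe was well above background in 5 CONT and 4 REST cows. It had REST 1, REST 3 and REST 4 (−3.67 to −3.47) above the highest CONT cow (−3.70), whereas REST 2, REST 5 and the lowest CONT cow were not well above background, and the order of the low cows is left out. The difference in spread was not tested.

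LCK, the kinase bound to CD4 and CD8, was measured by 5 probes, each well above background on all 12 arrays. The brightest had signals of 0.49, 0.78 and 1.94 in CONT and −0.13, 1.06 and 1.31 in REST. CONT 6 was the highest cow, and REST 2 and REST 5 were below every CONT cow. The difference was −0.15 ± 0.31 (SE), and the other 4 LCK probes gave −0.18 to 0.12. ZAP70, the kinase that docks on phosphorylated CD3 chains, had signals of −0.93, −0.53 and 0.31 in CONT and −1.19, −1.02 and 0.11 in REST. REST 1, REST 3, REST 4 and REST 6 were below every CONT cow, and REST 2 and REST 5 were in the upper part of the CONT range. The ZAP70 difference was −0.32 ± 0.28 (SE; 95% confidence interval −0.93 to 0.29, exact permutation p = 0.290).

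**Figure D2:**
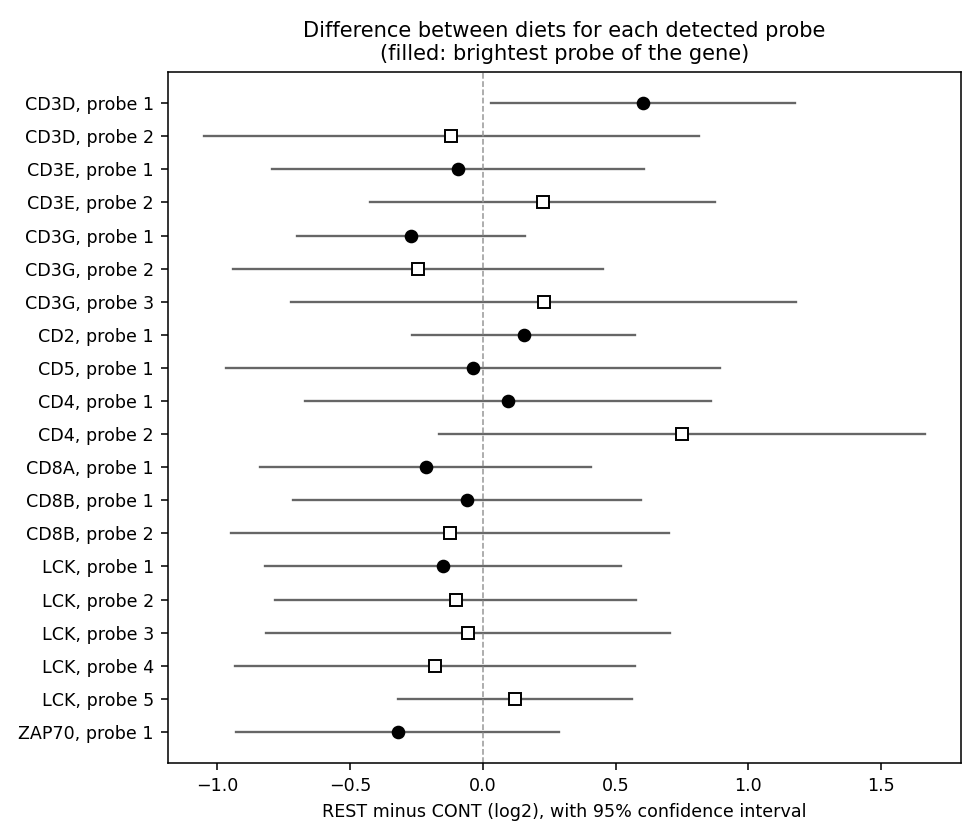
REST minus CONT in log2 units for the 20 probes that were well above background on at least 1 array, with 95% confidence intervals from limma, filled circles for the brightest probe of a gene and open squares for its other probes. The interval of the brightest CD3D probe excludes 0 (0.03 to 1.18), and those of the other 19 probes include it.

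Slides held unequal numbers of each group, and the differences were therefore also taken within slides. ZAP70 gave −0.47, 0.52 and −1.14 on slides 1, 2 and 3, and CD2 gave −0.01, 0.70 and −0.34. CD5 gave 0.43, −0.73 and 0.93, and CD8B gave 0.55, −0.69 and 0.24. None of the 10 brightest probes had the same sign on the 3 slides, while the second CD4 probe gave 1.16, 0.99 and 0.60. With slide as a block, CD3D gave 0.50 ± 0.30 (SE; 0 of the 10 genes under 0.05), and the signs of CD3E (0.11), CD4 (−0.09), CD5 (0.28) and CD8B (0.05) turned.

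**Figure D3:**
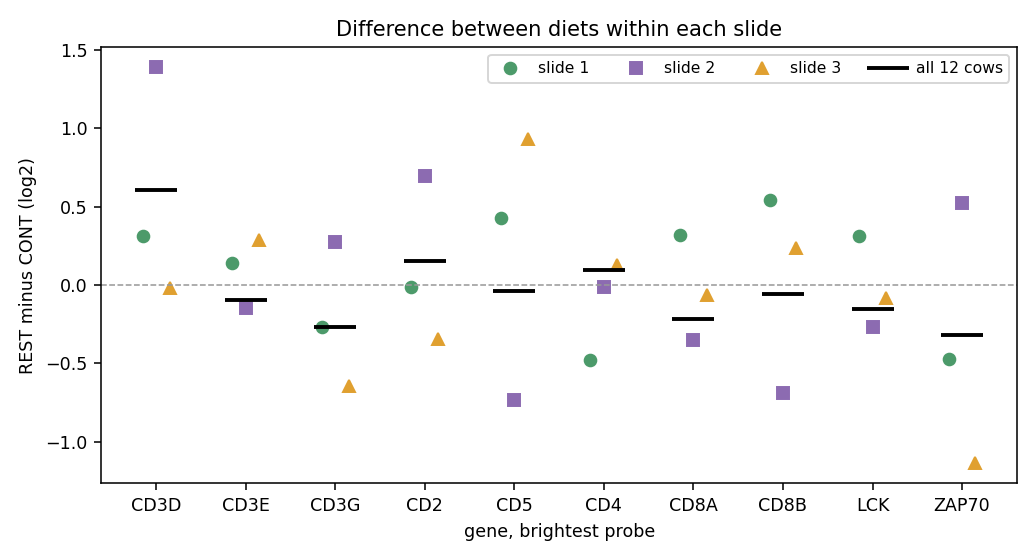
REST minus CONT in log2 units within each slide (symbols; slide 1 has 3 CONT and 1 REST cows, slide 2 has 1 and 3, slide 3 has 2 and 2) and over all 12 cows (black bars), brightest probe of each gene. For each gene the slides lie on both sides of 0, from 1.39 for CD3D on slide 2 to −1.14 for ZAP70 on slide 3.

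The variation between cows was then examined after subtraction of the group means, over 12 cows, and the means were taken again where cows were left out. Of the 45 pairs of brightest probes, 23 had a Pearson correlation above 0, with a median r of 0.01 and a range of −0.88 to 0.96. Permutation tests (100000 resamples within groups, adjusted with Benjamini-Hochberg over 61 probe pairs) gave a p under 0.05 for 11 of the 45 pairs, of which 7 were positive and 4 negative. The 10 genes did not vary as 1 block. Probes of CD3D, CD3G and CD4 disagreed in how they varied, and what each probe hybridizes to was not checked, so that a value holds for its probe.

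CD3E, CD8A and LCK formed a group that varied together, though the tests did not set it apart from CD5. LCK and CD3E had r = 0.96 and rho = 0.96 (permutation p = 5.0e-05 and 0.00011, adjusted 0.00061 and 0.00134), and r was 0.92 without REST 2 and REST 5. LCK and CD8A had r = 0.86 and rho = 0.81 (permutation p = 0.00015 and 0.00488, adjusted 0.00102 and 0.0229), and r was 0.81 without REST 2 and REST 3. In these genes CONT 6 was the highest of the CONT cows, and REST 2 was the lowest of all cows. CD5 had r = 0.73 with CD3E, 0.64 with CD8A, 0.67 with CD8B and −0.72 with ZAP70. Adjusted permutation p-values were 0.0223, 0.0411, 0.0222 and 0.0386 for r, and 0.0497, 0.191, 0.0978 and 0.266 for rho. CD5 was well above background in 4 CONT and 4 REST cows only. CD8A and CD8B had r = 0.78 (adjusted permutation p = 0.0673).

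The dimmer probes of CD3D and CD3G went with this group, unlike the brightest ones. The second CD3D probe had r = 0.96 and rho = 0.95 with LCK (permutation p = 0.00013 and 0.00020, adjusted 0.000991 and 0.00174), and r was 0.87 without CONT 6 and REST 2. The brightest CD3D probe had r = −0.20 and rho = −0.32 with LCK (permutation p = 0.565 and 0.346, adjusted 0.638 and 0.458; r = −0.30 without REST 6 and CONT 1). The 2 CD3D probes had r = −0.27 and rho = −0.45 with each other (permutation p = 0.448 and 0.172, adjusted 0.558 and 0.284; r = −0.38 without REST 6 and CONT 1). The second and the dimmest CD3G probe had r = 0.97 and 0.92 with LCK (0.90 and 0.73 without CONT 6 and REST 2), and the brightest had r = 0.42. The lowest cows of the dimmest probe were not well above background. Of the other LCK probes, 3 had r between 0.94 and 1.00 with the brightest one, and the dimmest had r = 0.45.

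CD4 ran opposite to the group in its brightest probe. It had r = −0.88 and rho = −0.79 with LCK (permutation p = 0.00027 and 0.00364, adjusted 0.00150 and 0.0185), and r was −0.78 without CONT 6 and REST 3. The second CD4 probe had r = 0.81 and rho = 0.64 with LCK (permutation p = 0.00440 and 0.0334, adjusted 0.0168 and 0.0972; r = 0.38 without CONT 6 and REST 2), so that this relation rested on those cows. The 2 CD4 probes had r = −0.88 and rho = −0.73 with each other (permutation p = 0.00104 and 0.0157, adjusted 0.00423 and 0.0533; r = −0.71 without CONT 6 and REST 3). As the second CD4 probe was well above background in 1 CONT and 4 REST cows only, its correlations rest largely on signals near background. Thus CONT 6 was the lowest cow for 1 CD4 probe (2.55) and the highest CONT cow for the other (−3.34).

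CD2 and the brightest CD3D probe varied together, with r = 0.77 and rho = 0.83 (permutation p = 0.00489 and 0.00258, adjusted 0.0175 and 0.0143), and r was 0.71 without CONT 4 and REST 6. CD3D and ZAP70 had r = 0.70 and rho = 0.78 (permutation p = 0.0198 and 0.00639, adjusted 0.0503 and 0.0278), and r was 0.71 without REST 6 and CONT 1. Such correlations were common on these arrays. Of 8992 named genes well above background on all arrays, 6.68% had r above 0.8 and 9.89% had r below −0.8 with LCK, so that the grouping is given as a description.

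**Figure D4:**
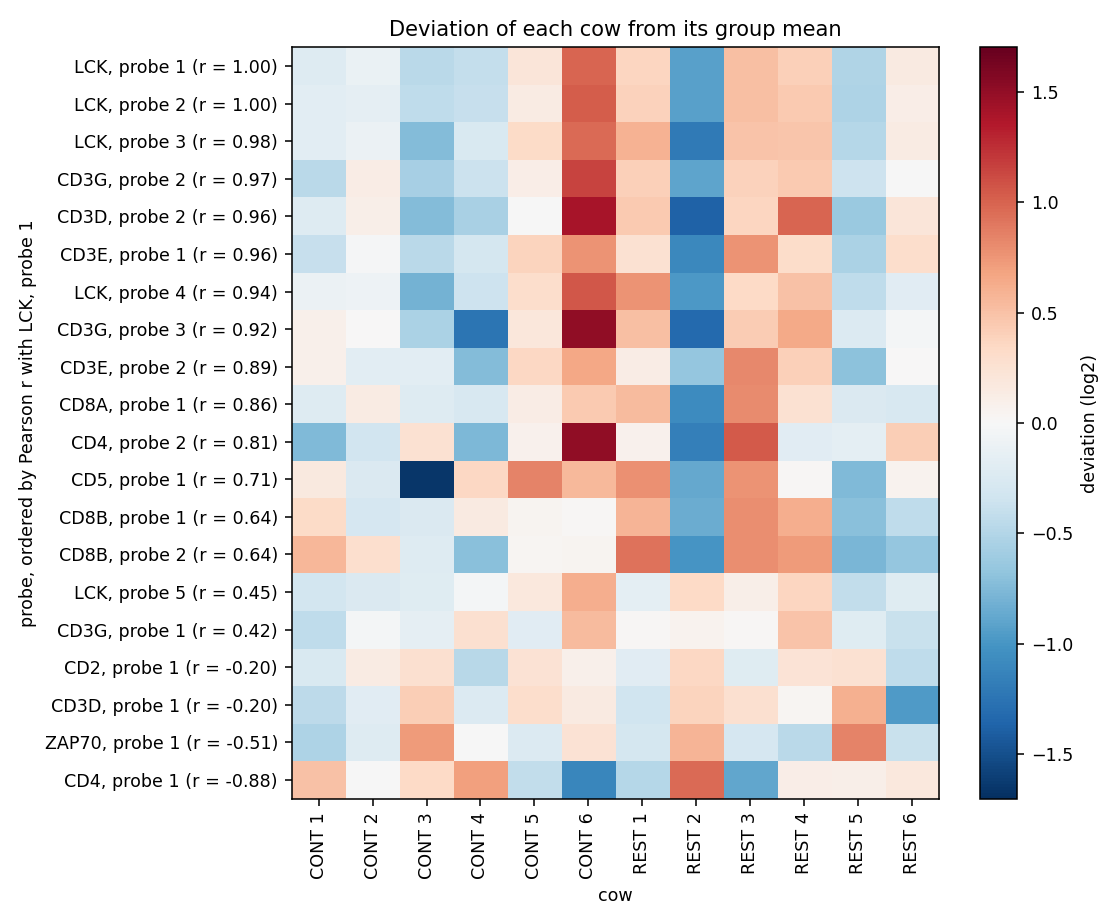
Deviation of each cow from its group mean in log2 units (colour) for the 20 probes well above background on at least 1 array, ordered by Pearson r with the brightest LCK probe over 12 cows. CONT 6 is high and REST 2 low in the upper lines, and the brightest CD4 probe in the lowest line (r = −0.88) shows the opposite colours.

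Cell type markers differed between the same cows. In the summed signal of 12 epithelial genes, the probes of the casein gene CSN1S1 and of LALBA gave the highest signals (mean log2 9.03 and 8.94 in CONT). LALBA encodes the whey protein alpha-lactalbumin. The sum rests mainly on the signals of these probes, which do not rank the expression of the genes. The sum was 9.37 to 11.02 (log2) in CONT and 9.72 to 11.4 in REST, lowest in CONT 6 and highest in REST 2. The summed signal of 11 genes expressed by all leukocytes was 5.59 to 6.61 in CONT and 4.78 to 6.77 in REST, lowest in REST 2 and then REST 5. Over all 12 cows, the brightest probes of the 10 genes were compared with both sums, and p-values were adjusted over these 20 relations.

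LCK had r = −0.85 and rho = −0.79 with the epithelial sum (permutation p = 0.00043 and 0.00354, adjusted 0.00470 and 0.0142). It was −0.66 without CONT 6 and REST 2, and −0.81 after slide means were subtracted. CD4 had r = 0.83 and rho = 0.73 (permutation p = 0.00094 and 0.00979, adjusted 0.00470 and 0.0326), 0.63 without the same cows and 0.76 after slide means were subtracted. CD3E, CD5, CD8A and CD8B also had a negative r (−0.84, −0.79, −0.82 and −0.62, adjusted permutation p = 0.00470, 0.00860, 0.00470 and 0.0478), and their r was −0.63 to −0.80 without CONT 6 and REST 2. For rho, the adjusted permutation p was 0.0142, 0.0126, 0.0142 and 0.0936, so that CD8B did not pass by rank. CD5 was well above background in 4 CONT and 4 REST cows, so that its correlations with both sums rest partly on signals near background. CD2, CD3D and ZAP70 had positive values of 0.36 to 0.52 and CD3G had −0.34, with adjusted permutation p-values of 0.120 to 0.288.

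With the leukocyte sum, LCK had r = 0.73 and rho = 0.62 (permutation p = 0.00627 and 0.0372, adjusted 0.0160 and 0.0930), and r was 0.42 without REST 2 and REST 5, so that the relation rested partly on those cows. It was 0.69 after slide means were subtracted. ZAP70 had r = −0.74 and rho = −0.80 (permutation p = 0.00643 and 0.00302, adjusted 0.0160 and 0.0142), −0.71 without those cows and −0.82 after slide means were subtracted. CD2 also had a negative relation, with r = −0.64 and rho = −0.69 (permutation p = 0.0236 and 0.0170, adjusted 0.0430 and 0.0487), −0.39 without those cows and −0.62 after slide means were subtracted. ZAP70 was thus lower in cows with more leukocyte signal, while for CD2 this relation rested partly on REST 2 and REST 5. CD3E, CD5, CD8A and CD8B had r of 0.63 to 0.75 (adjusted permutation p = 0.0160 to 0.0453; 0.0936 to 0.411 for rho), which became 0.07 to 0.56 without REST 2 and REST 5. CD3D, CD4 and CD3G had r of −0.51, −0.49 and −0.01 (adjusted permutation p = 0.122, 0.136 and 0.968). Of 9001 named genes, 19.6% had r above 0.6 and 19.2% r below −0.6 with the epithelial sum, and 15.3% and 12.7% with the leukocyte sum.

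The brightness of the array moved with the same genes. REST 2 (386.9) and REST 5 (508.5) had the lowest 75th percentiles and CONT 6 (1184) the highest. For the brightest probes, Pearson r with the log2 percentile was 0.72 for LCK, 0.70 for CD3E and −0.68 for CD3D. Permutation p-values were 0.00768, 0.0114 and 0.0166 (adjusted 0.0332 for each over 10 genes). CD8A (0.72) and CD5 (0.67) had the same adjusted p, but CD5 was not well above background in REST 2 and REST 5, among other cows. The others did not pass, with r = −0.61 for CD2, −0.62 for CD4, 0.47 for CD8B, −0.35 for ZAP70 and 0.31 for CD3G (adjusted permutation p = 0.0517, 0.0514, 0.157, 0.300 and 0.318). These relations depended on the probe. The second CD3D probe had r = 0.68 and the second CD3G probe r = 0.76 (permutation p = 0.0141 and 0.00382 before adjustment). The second CD4 probe had r = 0.21. For the brightest LCK, CD3E and CD3D probes, Spearman rho was 0.53, 0.53 and −0.69 (permutation p = 0.0791, 0.0795 and 0.0157, adjusted 0.140 for each). Without REST 2 and REST 5, r was 0.42, 0.33 and −0.41, and over the 8 arrays of slides 2 and 3 it was 0.86, 0.81 and −0.66. Of all named genes well above background, 15.0% had r above 0.6 and 12.1% below −0.6. The part of cell composition and of array brightness in the values of the 10 genes was not tested.

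**Figure D5:**
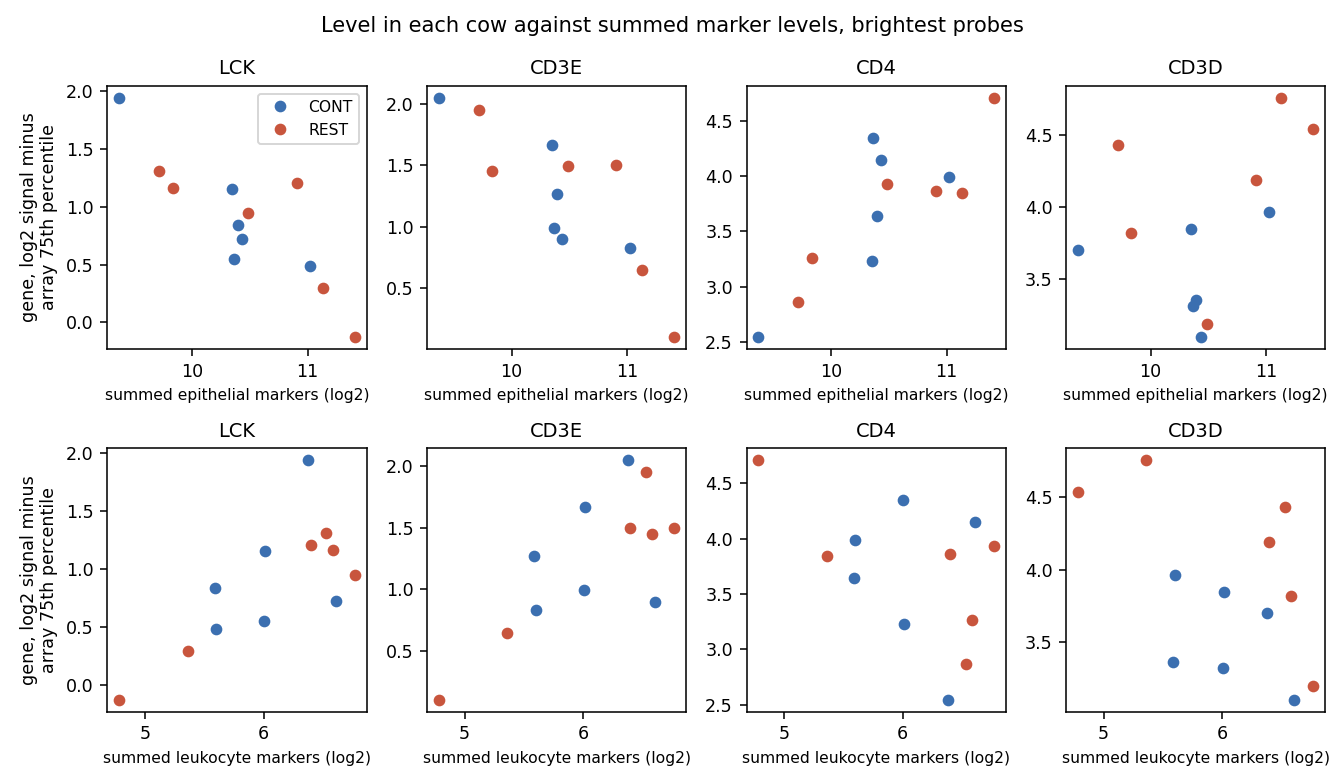
Log2 signal of the brightest LCK, CD3E, CD4 and CD3D probes in each cow (CONT blue, REST red) against the summed log2 signal of epithelial markers (top) and of leukocyte markers (bottom). LCK and CD3E decline with the epithelial sum (r = −0.85 and −0.84), CD4 increases with it (r = 0.83), and CD3D shows a weaker slope (r = 0.36).

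Other genes of T cell signalling were taken from lists. Of 18 genes that relay the signal from the receptor, 16 were measured, and 0 passed the threshold, with 8 higher, 8 lower and a median of −0.01. No gene of this list had an unadjusted p under 0.05. Among those with the lowest p-values were the kinase TXK (−0.51 ± 0.38 SE) and the exchange factor RASGRP1, which was well above background in 0 CONT and 2 REST cows and is given no difference.

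Of 21 costimulatory and inhibitory genes, 17 were measured and 0 passed, with 10 higher, 7 lower and a median of 0.07. PTPN22, a phosphatase that restrains LCK and ZAP70, gave 0.84 ± 0.36 (SE; exact permutation p = 0.0563, adjusted limma p = 1.00), but was well above background in 1 CONT and 4 REST cows and gave 0.16 after normexp background correction. The costimulatory receptor TNFRSF4 gave 0.56 ± 0.32 and the inhibitory receptor PDCD1 −0.36 ± 0.22. Of 14 transcription factors of the T lineage, 13 were measured and 0 passed, with 7 higher, 6 lower and a median of 0.05. FOXP3, the factor of regulatory T cells, gave 0.90 ± 0.58 while being well above background in 1 cow of each group, and 0.042 after normexp background correction. RUNX3 gave 0.37 ± 0.33, and 0.13 with slide as a block.

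Of 20 genes for homing and cytokine receptors and their ligands, 18 were measured and 0 passed, with 10 higher, 8 lower and a median of 0.10. CCL21, the chemokine that draws CCR7-bearing T cells, gave −1.24 ± 0.56 (SE; exact permutation p = 0.0693, adjusted limma p = 1.00). The lymphocyte egress receptor S1PR1 gave 0.55 ± 0.34 and the T cell chemokine CCL5 0.65 ± 0.41, or 0.98 ± 0.40 with slide as a block (adjusted p = 1.00 with limma, under 0.05 before adjustment). Of 19 genes of cytotoxic and natural killer cells, 15 were measured and 0 passed, with 6 higher, 9 lower and a median of −0.06. XCL1, a chemokine of activated cytotoxic T and natural killer cells, gave −0.71 ± 0.27 (SE; exact permutation p = 0.0195, adjusted limma p = 1.00), with 4 REST cows below every CONT cow. KLRD1, a receptor subunit of natural killer cells, gave −0.77 ± 0.64 while being well above background in 3 CONT and 1 REST cows, and −0.11 after normexp background correction. GNLY gave 0.46 ± 0.47, and −0.21 without the arrays of slide 1. Of 8 genes of the WC1 family and of gamma delta T cells, 4 were measured and 0 passed, with 3 higher, 1 lower and a median of 0.15. WC1-12 was well above background in 1 REST cow. CD163L1 gave 0.22 ± 0.31 (0.42 with slide as a block, 0.10 after normexp background correction and 0.032 without CONT 1). WC-7, which the study selected on these cows as higher in REST, gave 0.09 ± 0.42 in its brightest probe. Which probe the study called was not checked.

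Markers of other cells that a biopsy can hold showed no called gene either. B and plasma cell genes were 5 higher and 3 lower of 8 measured, and MS4A1, POU2AF1 and MZB1 had the lowest p-values. MS4A1 was well above background in 0 CONT and 4 REST cows. Its mean log2 signals were −5.46 in CONT and −4.74 in REST (exact permutation p = 0.0281), and both include signals not well above background. With CONT signals raised to at least the lowest detected signal of their array, the REST mean was 1.15-fold higher, which is no firm lower limit. POU2AF1 gave 0.94 ± 0.38 (SE; exact permutation p = 0.0476), and 0.45 after normexp background correction. MZB1 gave 0.24 ± 0.33. Macrophage and monocyte genes were 5 higher and 6 lower of 11, led by CD163 (0.85 ± 0.41), MSR1 (1.12 ± 0.63) and C1QA (−0.40 ± 0.36). Neutrophil genes were 6 higher and 4 lower of 10, led by MMP9 (0.39 ± 0.35, or 0.20 with slide as a block and 0.66 without CONT 1), CXCR1 (−1.03 ± 0.99, and −0.42 after normexp background correction) and CXCR2 (−0.19 ± 0.35), with summed signals of 4.26 to 7.43 in CONT and 2.70 to 7.59 in REST. Genes of all leukocytes were 6 higher and 5 lower of 11, led by HCLS1 (0.62 ± 0.26, exact permutation p = 0.0455, and 0.38 after normexp background correction), PTPRC (−0.34 ± 0.34) and LCP1 (0.30 ± 0.30).

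Among tissue markers, those of fibroblasts and matrix stood lowest, with 2 higher and 6 lower of 8 and a median of −0.49. LUM (−0.84 ± 0.24 SE), COL1A2 (−0.65 ± 0.27) and COL1A1 (−0.72 ± 0.31) had exact permutation p-values of 0.00866, 0.0325 and 0.0649 and adjusted limma p-values of 1.00. With slide as a block the median of the list was −0.27 and COL1A1 gave −0.39. The summed signal of the 8 genes was 5.78 to 6.15 in CONT and 4.74 to 6.25 in REST, and was lowest in REST 2 and REST 5, the cows in which CD3E and LCK were lowest. Epithelial genes were 8 higher and 4 lower of 12, led by KRT19 (0.48 ± 0.30), CSN1S1 (0.37 ± 0.27, and 0.059 with quantile normalization) and KRT18 (−0.49 ± 0.56). Red blood cell genes were 2 higher and 3 lower of 5, led by HBB, which was well above background in 1 CONT cow, AHSP (0.13 ± 0.30) and HBA (0.13 ± 0.38).

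The genes most like the mean of the 10 standardised T cell genes, over 12 cows after subtraction of the group means and among 8992 genes, were ZBTB43 (r = 0.96), the monocyte chemokine CCL8 (0.96), XCL1 (0.91), TMEM176A (0.88) and CXCR6 (0.88), the receptor of tissue-resident T cells. As the 10 genes hold members that run against each other, likeness was also taken for single probes, a choice made after the values were seen. Among the genes most like LCK were ZNF622 (r = 0.97), LOC509513 (0.97), CROT (0.96) and C1S (0.96). The genes most like the brightest CD3D probe were TMEM107 (r = 0.99), the globin gene HBM (0.98), STOML3 (0.97), TREM1 (0.96) and AGTR1 (0.95). None of these 5 is in the T cell lists, and TNFRSF9 of the costimulatory list came at rank 13 (r = 0.94).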

How the data were processed

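The authors extracted RNA from about 50 mg of tissue, labelled 100 ng with Cy3, hybridized one-color Agilent bovine arrays and processed the scans with Feature Extraction, version 11.0.1.1 per the file headers. The deposited values are spot intensities after background correction by that software, not normalized between arrays, and the deposited matrix holds the same intensities (largest difference 0). Control spots and outlier spots were left out, and log2 values minus the 75th percentile of the array were computed from the deposited intensities and averaged over spots of a probe. No filter on dim probes was used, and 205 of the 43653 probes lacked a value for 1 or more arrays. The brightest probe stands for a gene, and what each probe hybridizes to was not checked.

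REST and CONT were compared with limma 3.58.1 (R 4.3.3), two-sided, with Benjamini-Hochberg adjustment over all probes and a threshold of 0.05. The Westfall-Young adjustment of the study, which rests on other splits of the cows, was not used. Exact permutation tests over 6 against 6 cows cannot go below 0.00216. The procedure was tested on simulated data, and figures were drawn with matplotlib 3.10.9. In addition to the 10 genes and all their probes, the text names in each list the 3 genes with the lowest unadjusted p, and the 5 genes most like the mean of the 10. Some genes that this rule selects are not reported here. Members and lists were chosen with earlier results of these data known. Alternatives were quantile normalization, normexp background correction (offset 50), the deposited matrix, outlier spots kept, slide as a block, within-slide values, an intensity trend, a filter on dim probes, the mean over all probes, and each cow left out in turn. The array and the RefSeq table belong to different assemblies, so that no positions are given, and no sequences are shown.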

Additional observations from a re-analysis of the deposited data

How the results depend on the processing

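No probe was called under any alternative, each cow left out in turn included. The number of the 10 genes with an unadjusted p under 0.05 was 1 with quantile normalization, normexp, the deposited matrix, outlier spots kept, the intensity trend and the filter on dim probes, and 0 with slide as a block, with the mean over all probes and, an alternative chosen after seeing the data, without the 4 arrays of slide 1. It was 0 to 1 with each cow left out.

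CD2, CD3D, CD3G, CD8A, ZAP70 and LCK kept their direction under the tested alternatives other than leaving out single cows and within-slide values, and the median of the 10 genes was −0.16 to 0.02 under these. Of these, LCK and CD8A were close to 0 with slide as a block (−0.019 and −0.034), and each of the 6 genes had the opposite sign on 1 or more slides. The sign turned with slide as a block for CD3E (0.11), CD4 (−0.093), CD5 (0.28), CD8B (0.052), the second CD3D probe (0.0058) and the LCK probes 2 and 3 by brightness (0.016 and 0.14). It turned with the mean over all probes for CD3E (0.067) and CD4 (−0.11). With normexp it turned for CD3G probe 3 (−0.068) and LCK probe 5 (−0.0350), and without slide 1 for CD5 (0.12), CD3G probe 3 (−0.22), GNLY (−0.21) and LCP1 (−0.00154). The filter left no value for CD5. Each of these values was small beside its error, and the cause was not tested.

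Within slides, values moved by more than the spread between cows for CD8A (0.32), CD8B (0.55) and the median of the 10 genes (0.23) on slide 1. On slide 2 this held for CD2 (0.70), CD3D (1.39), CD3G (0.28), CD8B (−0.69) and ZAP70 (0.52). On slide 3 it held for CD2 (−0.34), CD3D (−0.020), CD3G (−0.64), CD5 (0.93) and ZAP70 (−1.14). The median correlation between the genes was 0.061 with slide means subtracted and −0.072 to 0.075 with each cow left out.

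Leaving out each cow in turn turned the sign of CD3E (−0.24 to 0.13), CD4 (−0.13 to 0.27), CD5 (−0.37 to 0.14), CD8B (−0.22 to 0.11) and LCK (−0.25 to 0.048). It did so for the second CD3D probe (−0.32 to 0.16), CD3G probe 3 (−0.019 to 0.53), the second CD8B probe (−0.31 to 0.078) and LCK probes 2, 3 and 4 (−0.21 to 0.10, −0.20 to 0.18 and −0.34 to 0.031). It also did so for WC-7 (−0.21 to 0.25), MZB1 (−0.064 to 0.36), AHSP (−0.076 to 0.22) and HBA (−0.17 to 0.28). Of the 35 list genes selected for naming that have a difference, 24 moved by over 1.5 times without 1 or another cow, 11 with slide as a block, 8 with normexp, 2 with quantile normalization and 14 without slide 1, so that single list genes are no firm values.

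No paired analysis was possible because the labels give no replicate number that links cows of the 2 groups. With 6 cows per group, the 95% confidence intervals ran from the narrowest, CD2 (−0.27 to 0.57), to the widest, CD5 (−0.96 to 0.89). The data do not tell apart the differences within an interval, and the intervals are not adjusted for the number of probes. Dim probes (CD5 and the second CD4 probe) are limited by their signal over background.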
